A study of Mus musculus with 23 samples.

Results

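Chemokines and chemokine receptors are the 61 protein-coding genes of the table whose symbols follow the family names (Ccl, Cxcl, Cx3cl, Xcl, *Pf4* and *Ppbp* for ligands, Ccr, Cxcr, Cx3cr, Xcr and Ackr for receptors). They were taken from 48897 genes, of which 21886 are protein-coding. They comprise 39 ligands, 18 signaling receptors and 4 atypical receptors. *Cxcl11* carries a family name but is listed as a transcribed pseudogene and was not taken. RNA from whole tissue was sequenced in 23 libraries of male BALB/c mice that were 4 to 6 weeks old at the start. In 9 mice, CT26 cells, a mouse colon carcinoma line, had been injected into the serosa of the cecum, and after 3 weeks the primary tumor and the liver, called pre-metastatic, were taken from each. In the other 5 mice, serum-free medium was injected in a sham operation and the control liver was taken. All tumors thus grew from a single cell line, and each tumor library holds RNA of CT26 cells together with that of the host cells around them.

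Chemokines are small secreted proteins that guide migrating cells along gradients, and they are divided by the spacing of their first cysteines into the CC, CXC, CX3C and XC families. They act on receptors that couple to inhibitory G proteins, and most inflammatory ligands share receptors with several relatives. Atypical receptors bind chemokines without this G protein signal and mainly remove or carry them. In liver and tumor, CXC ligands of *Cxcr2* are known for attracting neutrophils, CC ligands of *Ccr2* for attracting monocytes, and *Cxcl12* for retaining cells that carry *Cxcr4*.

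Total counts ranged from 44587556 to 79773163 per library. The defining transcripts of liver matched the labels: the summed level of 8 hepatocyte genes was 48486 to 58203 RPKM in control liver, 32942 to 66722 RPKM in pre-metastatic liver and 6.51 to 271 RPKM in tumor, where mice M12 and M10 had the highest sums. Levels are given in RPKM, reads scaled to gene length and library total, which can be compared between genes. Group differences are log2 differences from edgeR after TMM scaling, with their standard error, and adjusted p values are Benjamini-Hochberg values of its quasi-likelihood test over all genes tested. A gene is said to have risen or fallen only at an adjusted p under 0.05. The share of a library held by its 10 most abundant genes had a median of 16.0% in control liver, was 19.7% in the livers of tumor-bearing mice and was 5.45% in tumor, and the choice of scaling mattered between tumor and liver. The median gene differed by 0.13 on the log2 scale between tumor and pre-metastatic liver after TMM and by 1.30 when libraries were scaled to total counts alone, as RPKM is. A tumor level in RPKM therefore overstates a rise over liver relative to the median gene, and understates a fall. Between the 2 kinds of liver, the same medians were 0.01 and -0.07.

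The members lie mostly in clusters. The chromosome 5 cluster that includes the *Cxcr2* ligands (chr5:90759298-90905938, mm10) holds *Cxcl5*, *Ppbp*, *Pf4*, *Cxcl3*, *Cxcl15*, *Cxcl1* and *Cxcl2*. Because *Cxcl1* was the most abundant chemokine of pre-metastatic liver while *Cxcl2* and *Cxcl3*, its close relatives for the same receptor, were near 0 in liver and all 3 were present in tumor, the 250 bases before the start sites of these genes are shown from RefSeq (GRCm38.p6, plus strand). They span chr5:90890995-90891244 for *Cxcl1*, chr5:90903649-90903898 for *Cxcl2* and chr5:90785851-90786100 for *Cxcl3*. Capitals mark the NF-kB-type motif, the letters GGGA and TTCC with 2 bases of any kind between them, which matches there on both strands with an overlap.
Cxcl1: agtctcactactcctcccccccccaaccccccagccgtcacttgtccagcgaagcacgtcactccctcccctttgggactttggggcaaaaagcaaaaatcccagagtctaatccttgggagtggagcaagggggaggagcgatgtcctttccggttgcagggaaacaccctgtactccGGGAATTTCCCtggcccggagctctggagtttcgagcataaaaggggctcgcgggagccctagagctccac
Cxcl2: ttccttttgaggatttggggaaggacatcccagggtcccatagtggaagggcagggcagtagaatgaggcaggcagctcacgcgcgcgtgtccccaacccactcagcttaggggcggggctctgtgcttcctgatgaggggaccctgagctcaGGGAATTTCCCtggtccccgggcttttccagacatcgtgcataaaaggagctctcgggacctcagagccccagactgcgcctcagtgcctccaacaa
Cxcl3: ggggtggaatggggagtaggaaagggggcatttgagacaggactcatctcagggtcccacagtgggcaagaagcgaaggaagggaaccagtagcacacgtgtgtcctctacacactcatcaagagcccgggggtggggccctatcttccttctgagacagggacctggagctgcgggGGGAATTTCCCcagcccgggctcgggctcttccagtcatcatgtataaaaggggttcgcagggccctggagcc
The match began 71 bases before the start site in *Cxcl1*, 97 bases before it in *Cxcl2* and 73 bases before it in *Cxcl3*, and the capitals were the same in the 3 genes. A promoter was found for 47 of the 61 members, and 6 of these held this motif: *Ccl1*, *Ccr3*, *Cxcl1*, *Cxcl10*, *Cxcl2* and *Cxcl3*. It was present in 1.17% of 27018 promoters of the same length. The STAT-type motif TTCNNNGAA was present before 3 members (*Ccl17*, *Ccr6* and *Cxcl14*, 7.18% of all promoters), the IRF-type motif, GAAA and GAAA with 2 bases between them, before 3 (*Ccl19*, *Cxcl10* and *Cxcl14*, 3.04%) and the E-box CACGTG before 2 (*Cxcl3* and *Xcr1*, 6.05%). Both strands were searched, and a match is a description of these letters only.

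Each tissue had its own leading chemokines. The most abundant ligand was *Cxcl12* in control liver (median 37.8 RPKM), *Cxcl1* in pre-metastatic liver (median 86.4 RPKM) and *Ccl6*, a macrophage-derived ligand of *Ccr1*, in tumor (median 136 RPKM). Among the atypical receptors, *Ackr2* led in control liver, *Ackr1* in pre-metastatic liver and *Ackr3* in tumor (medians 0.930, 1.88 and 14.2 RPKM). A control liver had a median of 16 members at 1 RPKM or more, a pre-metastatic liver 19 and a tumor 32. The summed share of the members had a median of 389 CPM (counts scaled to the library total) in control liver, which compared with 539 CPM in pre-metastatic liver and 1232 CPM in tumor. On the RPKM scale, 26 of 39 ligands and 15 of 18 receptors had their highest median in tumor, 7 ligands and 2 receptors in pre-metastatic liver, and 2 ligands and 1 receptor in control liver. Of all 16860 protein-coding genes with a median above 0 in some tissue, 69.1% had their highest median in tumor on this scale. The other 4 ligands had a median of 0 in every tissue. At 3 counts or fewer in every library were 8 ligands and 2 receptors in control liver, 7 ligands in pre-metastatic liver and 4 ligands in tumor.

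Pre-metastatic and control livers were compared to see which chemokines change in a liver that lies far from the tumor. Of the 61 members, 43 had enough counts to be tested. Of these, 26 rose in pre-metastatic liver, where 17.7% of all 16987 genes tested rose, and 2 fell (*Ackr2* and *Ccl25*), where 13.3% of all genes fell. The other 15 were not called. In either direction, 31.0% of all genes were called. A rise of at least 2-fold was found for 22 members (9.48% of all genes) and a fall of that size for 1 (2.58%). The RPKM values of the groups did not overlap for 8 members that were higher (4.85% of all genes) and for 1 that was lower (6.09%). The median log2 difference was 1.25 over the members and 0.01 over all genes. The livers also fell into an early and a late phase by the level of their circadian genes, and within the early phase, with 4 control and 5 pre-metastatic livers, 17 members rose (14.4% of all genes) and 2 fell (10.7%). The 9 members called over all livers that were not called there were *Ccl19*, *Ccl9*, *Ccr7*, *Cx3cl1*, *Cxcl13*, *Cxcl16*, *Cxcr4*, *Cxcr5* and *Ppbp*. In whole tissue, more cells of a type and more RNA per cell cannot be told apart, and this holds for every comparison here.

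**Figure D1:**
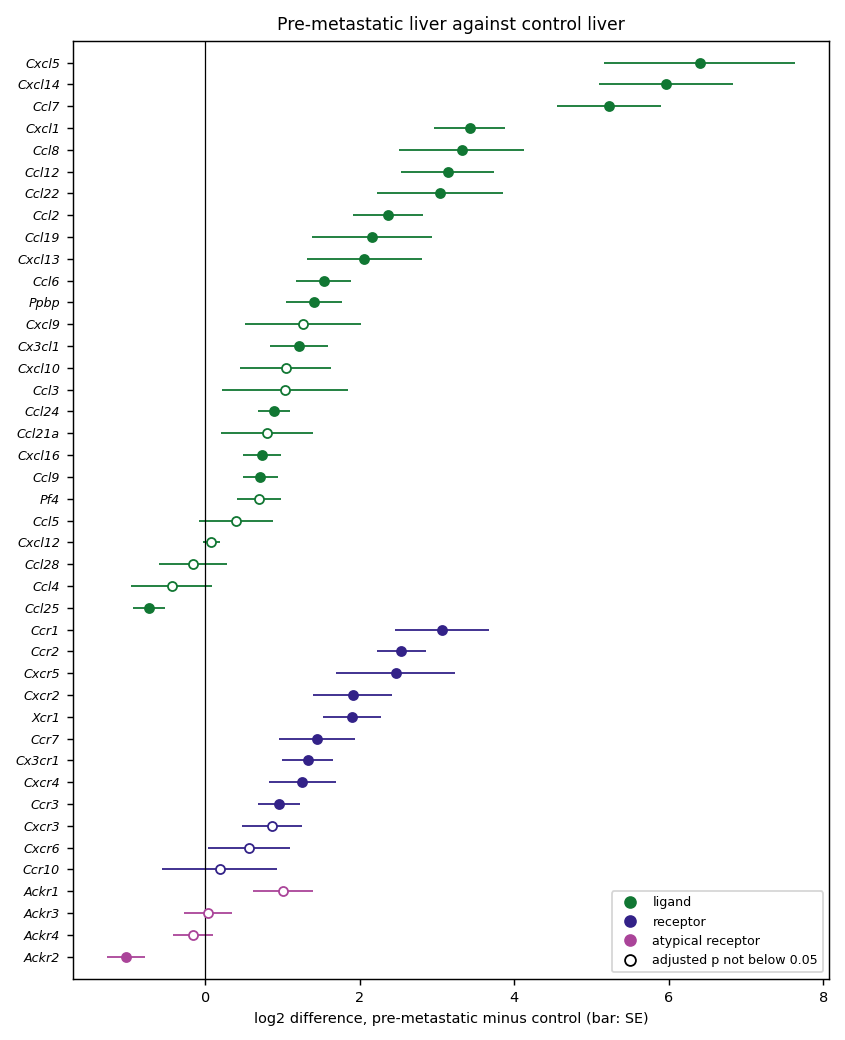
Log2 difference between 9 pre-metastatic and 5 control livers for 42 members tested (x axis, edgeR after TMM scaling), with members in rows grouped as ligands, receptors and atypical receptors, each sorted by size. Bars are standard errors and open circles are members not called. Most ligands and receptors lie to the right of 0, from Cxcl5 at 6.40 down, while Ackr2 lies at -1.03. The value of Cxcl5 rests on 1 count in control liver.

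The monocyte-attracting CC ligands rose together: all 4 were tested and all 4 rose. *Ccl2*, the main ligand of *Ccr2*, was at 0.0616, 0.389, 0.393, 0.610 and 0.745 RPKM in the 5 control livers and at 0.696 to 3.35 RPKM (median 2.01) in the 9 pre-metastatic livers. Only the lowest pre-metastatic liver, that of mouse M2, fell within the control range, and the log2 difference was 2.36 ± 0.46 (edgeR adjusted p = 0.00137). *Ccl7*, another ligand of *Ccr2*, was at 0, 0, 0.0227, 0.0244 and 0.0438 RPKM in control liver, where no library had more than 2 counts. It was at 0.224 to 1.20 RPKM (median 0.815) in pre-metastatic liver. These groups did not overlap, with a log2 difference of 5.23 ± 0.67 (edgeR adjusted p = 8.93e-05). *Ccl12*, the third ligand of *Ccr2* in this group, was at 0, 0.0655, 0.0679, 0.0731 and 0.155 RPKM in control liver, where no library had more than 5 counts. In pre-metastatic liver it was at 0.251 to 1.33 RPKM (median 0.515). It did not overlap either, with a log2 difference of 3.13 ± 0.60 (edgeR adjusted p = 0.00135). *Ccl8*, a relative that in mice acts through *Ccr8*, was at 0, 0.115, 0.178, 0.652 and 0.824 RPKM in control liver and at 0.201 to 8.99 RPKM (median 3.11) in pre-metastatic liver. The groups overlapped in part, as mouse M10 was within the control range and mouse M5 the highest, and the log2 difference was 3.32 ± 0.81 (edgeR adjusted p = 0.00646). The marker genes of monocytes moved the same way, with 7 of 8 risen and a summed level of 177 to 247 RPKM in control liver, 355 to 551 RPKM in pre-metastatic liver and 509 to 766 RPKM in tumor. In liver this sum was almost wholly *Fn1*, which hepatocytes also make (175 to 244 RPKM in control liver and 349 to 543 RPKM in pre-metastatic liver). The other 7 markers summed to 1.61 to 2.43 RPKM in control liver, 4.36 to 12.6 RPKM in pre-metastatic liver and 93.1 to 182 RPKM in tumor. None of the 8 was at 3 counts or fewer throughout a tissue. The part of monocyte number in the rise of the ligands was not tested.

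All 3 neutrophil-attracting CXC ligands that could be tested rose as well. *Cxcl1* was the most abundant of them, at 2.11, 5.62, 8.97, 13.5 and 14 RPKM in control liver and 50.2 to 149 RPKM (median 86.4) in pre-metastatic liver. The lowest pre-metastatic liver had over 3 times the highest control value, and the log2 difference was 3.42 ± 0.47 (edgeR adjusted p = 0.000127). *Cxcl5*, a ligand of *Cxcr2* made by epithelial cells, was at 0, 0, 0, 0 and 0.0106 RPKM in control liver, which is 1 count in a single library. It was at 0.0135 to 0.780 RPKM (median 0.161) in pre-metastatic liver. The summed counts of 254 and 1 correspond to a ratio of 140.4 with an exact 95% interval of 25.0 to 5568, which covers counting error only, and the fitted log2 difference was 6.40 ± 1.24 (edgeR adjusted p = 0.00138). Without control mouse C4, which holds that count, it was 7.74 (edgeR adjusted p = 0.00785). *Ppbp*, a platelet-derived ligand of *Cxcr2*, rose by 1.41 on the log2 scale (edgeR adjusted p = 0.00844), and was not called within the early phase (1.08, edgeR adjusted p = 0.0798). *Cxcl2* and *Cxcl3* were too low in liver to be tested here, with at most 7 and 2 counts in any liver. Neutrophil markers rose for 7 of the 10 tested, and their summed level was 6.82 to 23.9 RPKM in control liver, 7.68 to 151 RPKM in pre-metastatic liver and 9.69 to 252 RPKM in tumor. *S100a8* and *S100a9* held most of it, and the other 9 markers summed to 1.34 to 6.41 RPKM in control liver, 1.23 to 37.1 RPKM in pre-metastatic liver and 3.65 to 14.5 RPKM in tumor. The highest sum in pre-metastatic liver was that of mouse M1 and the lowest that of mouse M2, whereas *Cxcl1* was highest in mice M7 and M8. No neutrophil marker was at 3 counts or fewer throughout a tissue, and the part of neutrophils in these rises was not tested.

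Outside these groups, the largest rise was that of *Cxcl14*, a CXC ligand of epithelia and stroma (chr13:56288643-56296794). It was at 0.0269, 0.0556, 0.0676, 0.114 and 0.177 RPKM in control liver and at 0.491 to 12.6 RPKM (median 3.17) in pre-metastatic liver. The groups did not overlap, the lowest pre-metastatic value was that of mouse M2 and the highest that of mouse M6, and the log2 difference was 5.96 ± 0.86 (edgeR adjusted p = 0.000185). Among the macrophage-derived CC ligands, *Ccl6* (1.53, edgeR adjusted p = 0.00431) and *Ccl9* (0.71, edgeR adjusted p = 0.0254) rose and the other 3 of 5 were not called. *Ccl3*, an inflammatory ligand of *Ccr1*, was at 0, 0.0422, 0.0691, 0.105 and 0.311 RPKM in control liver and 0 to 0.730 RPKM (median 0.169) in pre-metastatic liver, and the log2 difference of 1.03 ± 0.82 (edgeR adjusted p = 0.362) was within the spread of the livers. *Ccl4*, its neighbor and close relative, was at 0.0375, 0.283, 0.371, 0.397 and 0.399 RPKM in control liver and 0.0504 to 0.714 RPKM (median 0.155) in pre-metastatic liver, with a log2 difference of -0.44 ± 0.53 (edgeR adjusted p = 0.561). *Ccl3* and *Ccl4* overlap by 755 bases on opposite strands, and how strand was counted is not given in the sources used here. *Ccl22*, a dendritic cell ligand of *Ccr4*, was at 0, 0, 0.00914, 0.0108 and 0.0460 RPKM in control liver and at 0.0172 to 0.269 RPKM (median 0.104) in pre-metastatic liver. It rose by 3.04 ± 0.81 (edgeR adjusted p = 0.0107) on the log2 scale, and by 4.27 without control mouse C5 (edgeR adjusted p = 0.00500). *Cx3cl1*, the membrane-bound ligand of *Cx3cr1*, and *Cxcl16*, the ligand of *Cxcr6*, rose by 1.21 and 0.74 (edgeR adjusted p = 0.0235 and 0.0332).

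Ligands of lymphoid tissue rose with less certainty. *Cxcl13*, the B cell ligand of *Cxcr5*, was at 0.909, 1.04, 1.33, 2.68 and 2.70 RPKM in control liver and at 0.560 to 25.3 RPKM (median 4.27) in pre-metastatic liver, where mouse M1 had the highest and mouse M2 the lowest value. Its log2 difference was 2.06 ± 0.75 (edgeR adjusted p = 0.0470). The call was lost without any of mice C1, C4, C5, C6, C7, M1, M7, M8, M10 or M12, with an edgeR adjusted p of up to 0.102, and without M1 the difference was 1.46. *Ccl19*, a ligand of *Ccr7* that draws T cells and dendritic cells, was at 0, 0.0244, 0.0253, 0.0272 and 0.185 RPKM in control liver and at 0.0348 to 0.432 RPKM (median 0.309) in pre-metastatic liver. These values are 20 counts or fewer. Its log2 difference was 2.16 ± 0.78 (edgeR adjusted p = 0.0470), 3.51 without mouse C5, and the call was lost without C1, C4, C6, C7 or M8 (edgeR adjusted p of up to 0.102). It passed the count filter in only 9 of the 14 fits that left out a liver, and was called in 4 of them. *Ccl21a*, the other ligand of *Ccr7* tested, was at 0.839, 1.60, 2.46, 3.17 and 3.42 RPKM in control liver and 0.573 to 11.6 RPKM (median 2.62) in pre-metastatic liver, and its difference of 0.80 ± 0.59 (edgeR adjusted p = 0.328) was within the spread. *Ccl21a* has near-identical copies, among which reads can be split, and its values are uncertain for that reason. B cell markers rose for 4 of 8 and T cell markers for 1 of 8, with summed levels of 1.28 to 2.48 RPKM in control liver, 1.20 to 9.93 RPKM in pre-metastatic liver and 2.26 to 6.93 RPKM in tumor for B cells and of 1.52 to 3.49 RPKM in control liver, 1.71 to 12.5 RPKM in pre-metastatic liver and 9.19 to 41.4 RPKM in tumor for T cells. No marker of either list was at 3 counts or fewer throughout a tissue.

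Among receptors, 10 of 13 tested rose, and among ligands 16 of 26, a difference that was not tested. All 6 receptors of myeloid cells that were tested rose, and *Cxcr1*, with at most 6 counts in a liver, was not tested. *Ccr2*, the monocyte receptor of *Ccl2*, *Ccl7* and *Ccl12*, was at 0.0960, 0.242, 0.305, 0.307 and 0.357 RPKM in control liver and at 0.881 to 2.35 RPKM (median 1.42) in pre-metastatic liver. The groups did not overlap and the log2 difference was 2.53 ± 0.32 (edgeR adjusted p = 7.54e-05). *Ccr1*, a receptor of monocytes and neutrophils, was at 0.0468, 0.0471, 0.0682, 0.0692 and 0.135 RPKM in control liver and at 0.0908 to 1.31 RPKM (median 0.496) in pre-metastatic liver. Mouse M10 was within the control range, and the log2 difference was 3.06 ± 0.61 (edgeR adjusted p = 0.00170). *Cxcr2*, the neutrophil receptor of *Cxcl1*, was at 0.0373, 0.105, 0.107, 0.127 and 0.146 RPKM in control liver and at 0.0861 to 0.875 RPKM (median 0.328) in pre-metastatic liver. Mouse M2 was again within the control range and mouse M6 the highest, with a log2 difference of 1.91 ± 0.52 (edgeR adjusted p = 0.0114). *Ccr3*, the eosinophil receptor, was at 0.667, 1.05, 1.12, 1.48 and 1.57 RPKM in control liver and 0.998 to 3.38 RPKM (median 2.07) in pre-metastatic liver, and rose by 0.95 ± 0.27 (edgeR adjusted p = 0.0154). *Cx3cr1*, a receptor of resident macrophages and patrolling monocytes, rose by 1.32 on the log2 scale (edgeR adjusted p = 0.00731). Macrophage markers rose for 9 of 12, with a summed level of 152 to 279 RPKM in control liver, 237 to 677 RPKM in pre-metastatic liver and 728 to 1916 RPKM in tumor. None of them was at 3 counts or fewer throughout a tissue, and the part of macrophages was not tested.

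Of the receptors of lymphocytes and dendritic cells, 7 of 11 were tested and 4 rose. *Xcr1*, which marks cross-presenting dendritic cells, rose by 1.90 (edgeR adjusted p = 0.00152) and its groups did not overlap. Dendritic cell markers rose for 1 of the 5 tested, with a summed level of 0.637 to 1.55 RPKM in control liver and 1.09 to 2.92 RPKM in pre-metastatic liver. The part of dendritic cells was not tested. *Cxcr5*, the B cell receptor of *Cxcl13*, was at 0.00749, 0.0127, 0.0134, 0.0255 and 0.0418 RPKM in control liver and 0 to 0.293 RPKM (median 0.0899) in pre-metastatic liver, a rise of 2.47 ± 0.77 (edgeR adjusted p = 0.0239) that was lost without C1, C4 or C6 (edgeR adjusted p of up to 0.0597). *Ccr7*, the receptor of *Ccl19* and *Ccl21a*, was at 0.0397, 0.0461, 0.0675, 0.0838 and 0.0889 RPKM in control liver and 0.0393 to 0.455 RPKM (median 0.173) in pre-metastatic liver. It rose by 1.44 ± 0.49 (edgeR adjusted p = 0.0359), and the call was lost without C4, C5, C6, C7, M1 or M4 (edgeR adjusted p of up to 0.0845). *Cxcr4*, the receptor of *Cxcl12*, was at 0.0982, 0.214, 0.227, 0.234 and 0.486 RPKM in control liver and 0.157 to 1.08 RPKM (median 0.579) in pre-metastatic liver. It rose by 1.25 ± 0.43 (edgeR adjusted p = 0.0387), and the call was lost without C1, C4, C5, C7, M1, M5, M7, M10 or M12 (edgeR adjusted p of up to 0.0870). *Ccr10*, a receptor of skin and mucosal lymphocytes, was at 0.00960, 0.0102, 0.0227, 0.116 and 0.116 RPKM in control liver and 0 to 0.144 RPKM (median 0.0314) in pre-metastatic liver. Its difference of 0.18 ± 0.74 (edgeR adjusted p = 0.874) was within the spread of the livers, and it overlaps *Cntnap1* by 795 bases on the other strand. *Cxcr3* and *Cxcr6*, receptors of T and NK cells, were not called (0.86 and 0.57).

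None of the 4 atypical receptors was called higher by edgeR, and 1 was lower. *Ackr2*, which removes inflammatory CC chemokines, was at 0.612, 0.640, 0.930, 1.32 and 1.43 RPKM in control liver and at 0.262 to 0.608 RPKM (median 0.551) in pre-metastatic liver. Every pre-metastatic liver lay below every control liver, and the log2 difference was -1.03 ± 0.25 (edgeR adjusted p = 0.00569). *Ackr1*, the Duffy receptor of venular endothelium and red cells, was at 0.601, 0.748, 0.773, 1.37 and 1.54 RPKM in control liver and 0.606 to 3.81 RPKM (median 1.88) in pre-metastatic liver, with a difference of 1.0 ± 0.39 (edgeR adjusted p = 0.0624) that was called by DESeq2 (adjusted p = 0.0274) and by edgeR without M6, M7 or M12 (edgeR adjusted p = 0.0475, 0.0256 and 0.0474). *Ackr3*, a second receptor of *Cxcl12*, was at 0.273, 0.321, 0.537, 0.722 and 0.768 RPKM in control liver and 0.314 to 1.20 RPKM (median 0.474) in pre-metastatic liver, with a log2 difference of 0.03 ± 0.31 (edgeR adjusted p = 0.952). Several ligands also did not move beyond the spread of the livers. *Cxcl12* was at 33.1, 36.2, 37.8, 40.5 and 44.4 RPKM in control liver and 29.0 to 48.0 RPKM (median 39.0) in pre-metastatic liver, a log2 difference of 0.08 ± 0.11 (edgeR adjusted p = 0.631). *Ccl28*, a mucosal ligand of *Ccr10* and *Ccr3*, was at 0.0415, 0.0633, 0.0723, 0.0855 and 0.111 RPKM in control liver and 0.0274 to 0.168 RPKM (median 0.0520) in pre-metastatic liver, a log2 difference of -0.16 ± 0.44 (edgeR adjusted p = 0.810). *Ccl28* had only 8 to 57 counts in a liver, which limits how small a change could be seen. The interferon-inducible ligands *Cxcl9* and *Cxcl10* were not called (1.26 and 1.04), and the liver of mouse M5 had the highest value of both. *Ccl25*, a ligand of *Ccr9* made by epithelial cells, fell by 0.73 on the log2 scale (edgeR adjusted p = 0.0132).

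A separate list of 30 genes of chemokine receptor signaling was read. Most of them act below the receptors, but *Ccrl2*, *Gpr182* and *Dpp4* are cell surface proteins that do not. In pre-metastatic liver, where 17.7% of all genes rose and 13.3% fell, 20 of these 30 rose and 0 fell. Their median log2 difference was 0.61, against 0.01 for all genes. *Rgs16*, which ends G protein signaling, rose by 4.15 (edgeR adjusted p = 0.0107). It was at 0.981 to 3.21 RPKM in control liver and 0.671 to 103 RPKM in pre-metastatic liver, where mice M4, M5 and M8 were not above the control range. The livers of M4, M5 and M8 were of the early circadian phase, as were 4 control livers, while 4 pre-metastatic livers were of the late phase. The genes of this list are given over all livers only, and the part of circadian phase in the rise of *Rgs16* was not tested. *Rac2*, the small GTPase that drives leukocyte movement, rose by 1.44 (edgeR adjusted p = 0.000417). *Arrb2*, the arrestin that takes receptors off the surface, rose by 0.56 (edgeR adjusted p = 0.00836). Of the inhibitory G protein subunits, *Gnai2* rose by 0.47 (edgeR adjusted p = 0.00145) and *Gnai3* was not called (-0.19, edgeR adjusted p = 0.0958). Of the 26 members that rose, 18 kept their call in every fit that tested them, with each of the 14 livers left out in turn. So did both that fell. The 8 that lost the call without some liver were *Ccl19*, *Ccl9*, *Ccr7*, *Cx3cl1*, *Cxcl13*, *Cxcl16*, *Cxcr4* and *Cxcr5*. *Ccl22*, among the 18, was tested in only 9 of the 14 fits, since its counts did not pass the filter in the others.

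The primary tumor was then set against the liver of the same mice to place each ligand and receptor in a tissue. The test took tumors and livers as separate groups and did not pair the samples of a mouse. A fit with the mouse as a block was run as an alternative. Of 49 members tested, 27 were higher in tumor, all by at least 2-fold, where 43.8% of all 19749 genes were higher and 31.3% by that size. Another 13 were lower, 12 of them by at least 2-fold, where 39.5% of all genes were lower and 28.4% by that size, and 9 were not called. In either direction 83.3% of all genes were called, so that the share of members called, 40 of 49, was close to the background. The RPKM values did not overlap for 22 members that were higher (52.9% of all genes) and for 7 that were lower (14.2%). With total-count scaling, 37 members were higher and 10 lower, and of the calls over all genes 76.0% were higher, against 52.5% with TMM. The median log2 difference over the members was 1.22 with TMM and 2.38 with total-count scaling, against 0.13 and 1.30 over all genes. *Ccl9* changed direction with the scaling (-0.72 with TMM and 0.48 with total counts), as did *Cxcr2* (-0.21 and 1.01) and *Cxcr3* (-0.39 and 0.76).

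**Figure D2:**
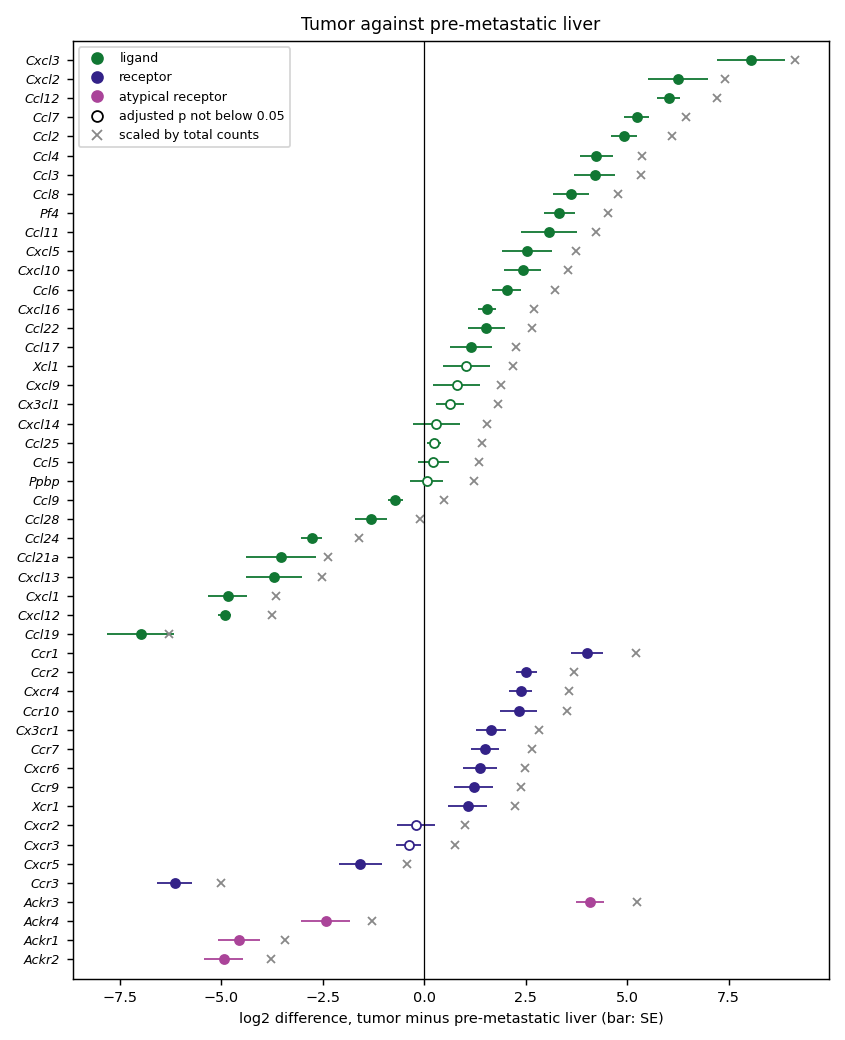
Log2 difference between 9 primary tumors and 9 pre-metastatic livers for 48 members tested (x axis), with members in rows grouped as ligands, receptors and atypical receptors. Circles are edgeR values after TMM scaling with standard errors, open where not called, and crosses are the values with libraries scaled to total counts, which lie further right. The fitted value of Ccl19 is a tumor group at 0 in every library. Members range from Cxcl3 at 8.05 to Ccl19 at -6.99, with Ccr3 at -6.15 the lowest of those with counts in tumor.

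Monocyte-attracting ligands were among the members highest in tumor over liver, and all 4 rose without overlap. *Ccl12* was at 59.0 to 118 RPKM (median 97.6) in tumor, where pre-metastatic liver had a median of 0.515 RPKM, and the log2 difference was 6.02 ± 0.29 (edgeR adjusted p = 1.74e-13). *Ccl2* was at 70.3 to 272 RPKM (median 132) in tumor and differed by 4.92 ± 0.32 (edgeR adjusted p = 1.46e-11). *Ccl7* was at 40.4 to 95.0 RPKM (median 54.4) in tumor and differed by 5.23 ± 0.31 (edgeR adjusted p = 3.80e-12). These ligands of *Ccr2* thus stood in the same order of tissues, with control liver lowest, pre-metastatic liver between and tumor highest. *Ccl8* was at 36.8 to 177 RPKM (median 90.6) in tumor and differed by 3.61 ± 0.45 (edgeR adjusted p = 3.52e-07). Their receptors were also higher there. *Ccr2* was at 9.58 to 30.4 RPKM (median 21.0) in tumor and differed by 2.51 ± 0.26 (edgeR adjusted p = 1.84e-08), and *Ccr1* was at 12.7 to 26.0 RPKM (median 23.1) and differed by 4.01 ± 0.39 (edgeR adjusted p = 7.37e-09). Neither receptor overlapped between tumor and liver. Monocyte markers were higher in tumor for 6 of 8 and lower for 1.

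**Figure D3:**
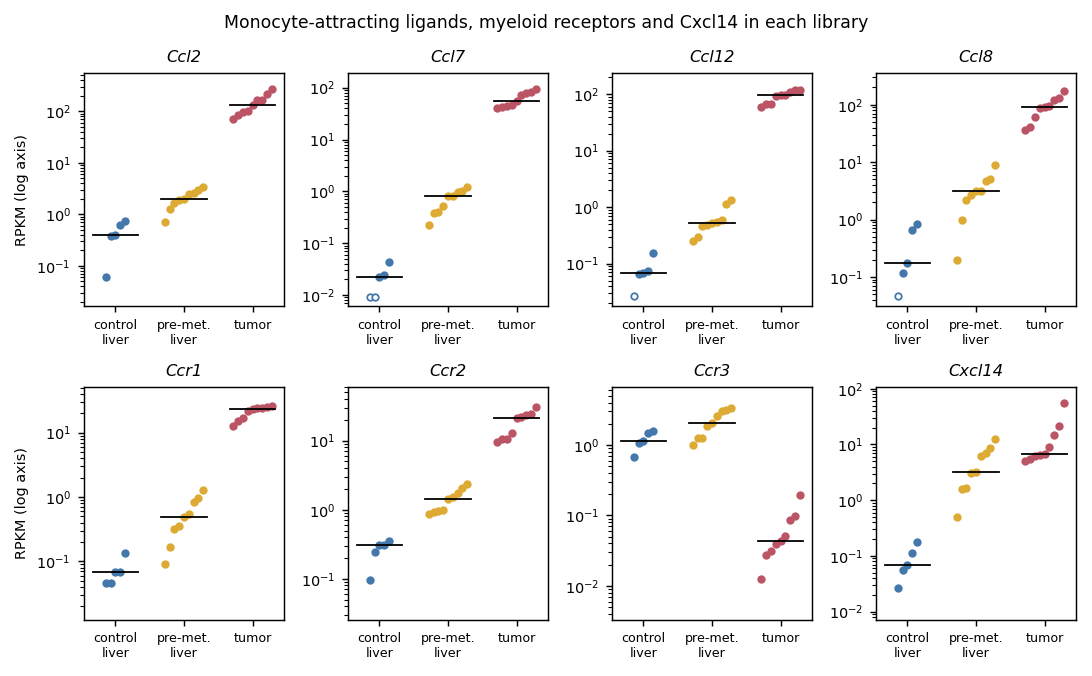
RPKM in each library (log axis, one scale per gene) for Ccl2, Ccl7, Ccl12, Ccl8, Ccr1, Ccr2, Ccr3 and Cxcl14 in 5 control livers, 9 pre-metastatic livers and 9 tumors. Lines are medians and open circles at the bottom are libraries with no count. All but Ccr3 and Cxcl14 step up from control liver to pre-metastatic liver to tumor, Ccr3 drops from a median of 2.07 RPKM in pre-metastatic liver to 0.0427 RPKM in tumor, and Cxcl14 overlaps between pre-metastatic liver and tumor.

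The ligands of *Cxcr2* were divided between the tissues. *Cxcl1* was at 1.65 to 14.8 RPKM (median 3.71) in tumor, lower than in every pre-metastatic liver, with a log2 difference of -4.85 ± 0.47 (edgeR adjusted p = 9.31e-09). *Cxcl2*, its close relative, was at 0.462 to 25.4 RPKM (median 12.3) in tumor and at 0.0116 to 0.111 RPKM (median 0.0617) in pre-metastatic liver, with no overlap and a log2 difference of 6.25 ± 0.74 (edgeR adjusted p = 1.62e-07). *Cxcl3*, the third of these, was at 0.211 to 13.4 RPKM (median 5.77) in tumor, while 5 of 9 pre-metastatic livers had no count and the others 1 or 2. Its log2 difference was 8.05 ± 0.83 (edgeR adjusted p = 2.26e-08). Mouse M4 had the lowest tumor value of *Cxcl1*, *Cxcl2* and *Cxcl3*, and mouse M8 the highest of *Cxcl2* and *Cxcl3*. *Cxcl5* was at 0.912 to 9.27 RPKM (median 2.17) in tumor and differed by 2.53 ± 0.61 (edgeR adjusted p = 0.000737), and *Ppbp* did not differ beyond the spread (0.06 ± 0.41 (edgeR adjusted p = 0.896)). *Pf4*, a platelet and macrophage chemokine of the same cluster, was higher in tumor by 3.33 (edgeR adjusted p = 7.99e-08). The receptor *Cxcr2* was at 0.113 to 1.61 RPKM (median 0.586) in tumor and overlapped with pre-metastatic liver, with a log2 difference of -0.21 ± 0.47 (edgeR adjusted p = 0.691) after TMM and of 1.01 with total-count scaling (edgeR adjusted p = 0.0479). Neutrophil markers were higher in tumor for 2 of 10 and lower for 5. In the tumors, the neutrophil sum was lowest in mice M4 and M10, as were *Cxcr2* and *Cxcl2*, and highest in mice M1 and M8. The part of neutrophils in these values was not tested.

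**Figure D4:**
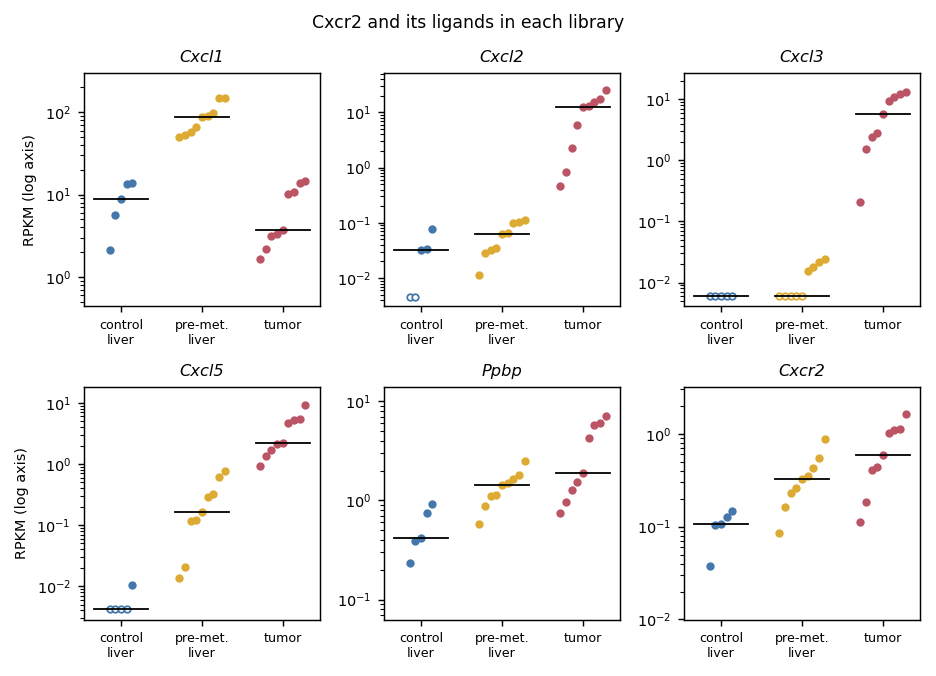
RPKM in each library (log axis, one scale per gene) for Cxcl1, Cxcl2, Cxcl3, Cxcl5, Ppbp and their receptor Cxcr2 in 5 control livers, 9 pre-metastatic livers and 9 tumors. Lines are medians and open circles are libraries with no count. Cxcl1 peaks in pre-metastatic liver (median 86.4 RPKM), whereas Cxcl2, Cxcl3 and Cxcl5 are highest in tumor (medians 12.3, 5.77 and 2.17 RPKM).

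Of the other inflammatory ligands, *Ccl3* was at 2.75 to 18.5 RPKM (median 8.18) in tumor and *Ccl4* at 3.90 to 17.2 RPKM (median 8.76). Both stood above every liver, with log2 differences of 4.19 ± 0.50 (edgeR adjusted p = 1.96e-07) and 4.24 ± 0.40 (edgeR adjusted p = 5.29e-09) from pre-metastatic liver. *Ccl22* was at 0.112 to 1.27 RPKM (median 0.697) in tumor and differed by 1.53 ± 0.46 (edgeR adjusted p = 0.00463), with an overlap through mouse M12. *Ccl11*, the eotaxin that attracts eosinophils through *Ccr3*, was at 0.535 to 4.09 RPKM (median 1.54) in tumor and at 0 to 0.369 RPKM (median 0.0331) in pre-metastatic liver, where 3 livers had no count. The groups did not overlap, and the log2 difference was 3.08 ± 0.70 (edgeR adjusted p = 0.000430). *Cxcl10* rose by 2.42 (edgeR adjusted p = 6.05e-05) and lies within *Art3* on the opposite strand. *Cxcl14* was at 4.95 to 54.9 RPKM (median 6.64) in tumor and at a median of 3.17 RPKM in pre-metastatic liver, with a log2 difference of 0.29 ± 0.57 (edgeR adjusted p = 0.644) after TMM and of 1.55 with total-count scaling (edgeR adjusted p = 0.0154). Without the tumor of mouse M4, its highest value, the TMM difference was -0.33. A further 3 members called higher, *Ccl17*, *Ccr9* and *Xcr1*, lost the call when some library was left out.

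*Cxcl12*, the most abundant ligand of control liver, was lower in tumor. It was at 2.06 to 4.86 RPKM (median 2.44) in tumor and lay below every liver, with a log2 difference of -4.92 ± 0.17 (edgeR adjusted p = 1.29e-15). *Ccl19* had no count in any of the 9 tumors and at most 20 counts in a pre-metastatic liver. With libraries scaled to total counts and 3 counts over the group as the floor, it was at least 29.0-fold lower in tumor (edgeR adjusted p = 6.31e-06 after TMM). *Ccl21a* was at 0 to 3.97 RPKM (median 0.176) in tumor and differed by -3.54 ± 0.87 (edgeR adjusted p = 0.000892), and by -4.63 without the tumor of mouse M2, whose value was the highest. *Cxcl13* was at 0.110 to 3.47 RPKM (median 0.696) in tumor and differed by -3.70 ± 0.69 (edgeR adjusted p = 6.10e-05), and by -3.11 without the liver of mouse M1. Both overlapped with pre-metastatic liver. *Ccl24*, a second eotaxin, was lower in tumor, with a difference of -2.78 on the log2 scale (edgeR adjusted p = 6.50e-09) without overlap. *Ccl28* was at 0.0104 to 0.0907 RPKM (median 0.0589) in tumor, about its RPKM in liver. It differed by -1.32 ± 0.40 (edgeR adjusted p = 0.00459) after TMM and by -0.11 with total-count scaling (edgeR adjusted p = 0.785), so that its call depended on the scaling. Markers of lymphatic endothelium, cells that make *Ccl21a*, were lower in tumor for 4 of 5, and none was at 3 counts or fewer throughout a tissue. *Prox1*, which hepatocytes also express, held most of the summed level in liver, and *Pdpn*, the marker that was higher, held most of it in tumor (23.9 to 95.6 RPKM). The other 3 summed to 4.18 to 9.52 RPKM in control liver, 1.48 to 14.2 RPKM in pre-metastatic liver and 0.417 to 1.21 RPKM in tumor. *Reln* and *Flt4* held most of this in control liver (medians 4.32 and 2.89 RPKM), and which liver cells made them was not tested. *Mmrn1* had medians of 0.182 RPKM in control liver, 0.164 RPKM in pre-metastatic liver and 0.0183 RPKM in tumor. The part of lymphatic endothelium in the fall of *Ccl21a* was not tested.

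Among receptors, *Ccr3* stood apart from its neighbors on chromosome 9. It was at 0.0124 to 0.198 RPKM (median 0.0427) in tumor, below every liver, with a log2 difference of -6.15 ± 0.43 (edgeR adjusted p = 5.31e-11). *Ccr9*, *Cxcr6*, *Xcr1*, *Ccr1* and *Ccr2*, receptor genes of the same cluster, were all higher in tumor. On the opposite strand, *Cxcr6* lies within *Fyco1* and *Ccr9* overlaps *Gm17021* by 5403 bases, and how strand was counted is not given. The calls of *Ccr9* and *Xcr1* were lost with the mouse as a block. Eosinophil markers summed to 0.963 to 4.21 RPKM in control liver, 2.54 to 5.88 RPKM in pre-metastatic liver and 0.116 to 1.62 RPKM in tumor, but *Ear2* alone held most of the liver sums (0.902 to 4.17 RPKM in control liver and 2.38 to 5.84 RPKM in pre-metastatic liver). Without it the other 4 summed to 0.00579 to 0.0612 RPKM in control liver, 0.0401 to 1.09 RPKM in pre-metastatic liver and 0.0893 to 1.11 RPKM in tumor. The defining genes *Prg2*, *Epx* and *Ear1* had 3 counts or fewer in every control liver, as had *Epx* in every tumor, and in pre-metastatic liver *Prg2* and *Epx* had a median of 0. The part of eosinophils was not tested. *Ccr7* was at 0.605 to 1.60 RPKM (median 1.20) in tumor and differed by 1.49 ± 0.34 (edgeR adjusted p = 0.000420). *Cxcr4* was at 3.68 to 10.4 RPKM (median 5.67) in tumor and differed by 2.37 ± 0.29 (edgeR adjusted p = 2.68e-07). *Ccr10* was at 0.425 to 1.34 RPKM (median 0.554) in tumor and differed by 2.32 ± 0.46 (edgeR adjusted p = 0.000102). Each of *Ccr7*, *Cxcr4* and *Ccr10* lay above every liver. *Cxcr5* was at 0.0292 to 0.178 RPKM (median 0.0791) in tumor, overlapped with liver and differed by -1.58 ± 0.53 (edgeR adjusted p = 0.00985). Its call was lost with the mouse as a block in the paired fit (-1.34, edgeR adjusted p = 0.0846) and with total-count scaling (-0.42, edgeR adjusted p = 0.451).

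The atypical receptors were divided. *Ackr3* was at 7.30 to 38.5 RPKM (median 14.2) in tumor, above every liver, with a log2 difference of 4.08 ± 0.35 (edgeR adjusted p = 1.03e-09). *Ackr1* was at 0.0149 to 0.427 RPKM (median 0.158) in tumor and differed by -4.58 ± 0.52 (edgeR adjusted p = 8.53e-08). *Ackr2* was at 0 to 0.101 RPKM (median 0.0284) in tumor, with 15 counts or fewer in any, and differed by -4.95 ± 0.47 (edgeR adjusted p = 5.85e-09). Neither *Ackr1* nor *Ackr2* overlapped with pre-metastatic liver. *Ackr4*, which removes *Ccl19*, *Ccl21a* and *Ccl25*, was lower in tumor, with a log2 difference of -2.43 (edgeR adjusted p = 0.00101) and lies within *Acad11* on the opposite strand. Of the 30 genes of the signaling list, 21 were higher and 5 lower in tumor, where 43.8% of all genes were higher and 39.5% lower. *Gpr182*, which does not act below the receptors, was among the lower ones (-6.42). In either direction 83.3% of all genes were called, close to the share called in this list. The median log2 difference of the list was 0.86 against 0.13 for all genes.

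Tumor and control liver were compared for completeness, with the same tumors as above. Of 48 members tested, 32 were higher in tumor (44.2% of all 19320 genes), all by at least 2-fold (33.5%), and 11 were lower (38.1%), 10 of them by at least 2-fold (27.3%). In either direction, 82.3% of all genes were called. The groups did not overlap for 30 members that were higher (56.4%) and for 4 that were lower (17.1%). With total-count scaling, 38 were higher and 5 lower, and 75.7% of the calls over all genes were higher, against 53.7% with TMM. Some of the largest values belong to genes nearly silent in control liver. *Cxcl3* had no count in any control liver. With libraries scaled to total counts and 3 counts over the group as the floor, it was at least 609-fold higher in tumor. This bound is not on the TMM scale, on which a rise in tumor over liver is smaller. *Ccl7* differed by 10.57 ± 0.47 (edgeR adjusted p = 4.96e-12), and *Ccl12* by 9.19 ± 0.36 (edgeR adjusted p = 1.05e-12). Side by side, the log2 differences of *Ccl7* were 5.23 for pre-metastatic over control liver and 5.23 for tumor over pre-metastatic liver, 2 comparisons that share the pre-metastatic livers. *Cxcl1* was lower in tumor than in control liver by -1.41 ± 0.55 (edgeR adjusted p = 0.0260), and this call was lost without C1 or C7 (edgeR adjusted p = 0.0783 and 0.0683) and with total-count scaling (-0.32, edgeR adjusted p = 0.590). *Ccl25* reversed with the scaling, at -0.47 after TMM (edgeR adjusted p = 0.00597) and 0.61 with total counts (edgeR adjusted p = 0.000986).

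To find ligands made in one tissue whose receptor lies in the other, 40 known ligand and receptor pairs were placed by their tumor and pre-metastatic liver values. Both partners were members in 38 pairs and both were tested in 32. In 9 pairs, ligand and receptor were both higher in tumor, among them *Ccl2*, *Ccl7* and *Ccl12* with *Ccr2*, *Ccl3*, *Ccl6* and *Ccl7* with *Ccr1*, and *Cxcl16* with *Cxcr6*. In 3 pairs both were higher in liver, namely *Ccl24* and *Ccl28* with *Ccr3* and *Cxcl13* with *Cxcr5*. In 6 pairs the ligand was higher in liver and the receptor in tumor: *Cxcl12* with *Cxcr4* and with *Ackr3*, *Ccl19* and *Ccl21a* with *Ccr7*, *Ccl28* with *Ccr10*, and *Ccl9* with *Ccr1*. The reverse arrangement, a ligand higher in tumor and its receptor in liver, was found once, for *Ccl11* and *Ccr3*. In the other 13 pairs at least one partner was not called. Taken singly, 43.8% of all genes tested were higher in tumor than in pre-metastatic liver and 39.5% were lower. Whether the pairs were placed otherwise than unrelated genes was not tested, and some pairs share a ligand or a receptor. With total-count scaling, 21 pairs were both higher in tumor, 1 both in liver, 5 had the ligand in liver and the receptor in tumor, 2 the reverse, and 3 were not called. The 4 pairs of *Cxcl12* and of the *Ccr7* ligands and the pair of *Ccl11* and *Ccr3* kept their placement, whereas those of *Ccl28* and of *Ccl9* did not.

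**Figure D5:**
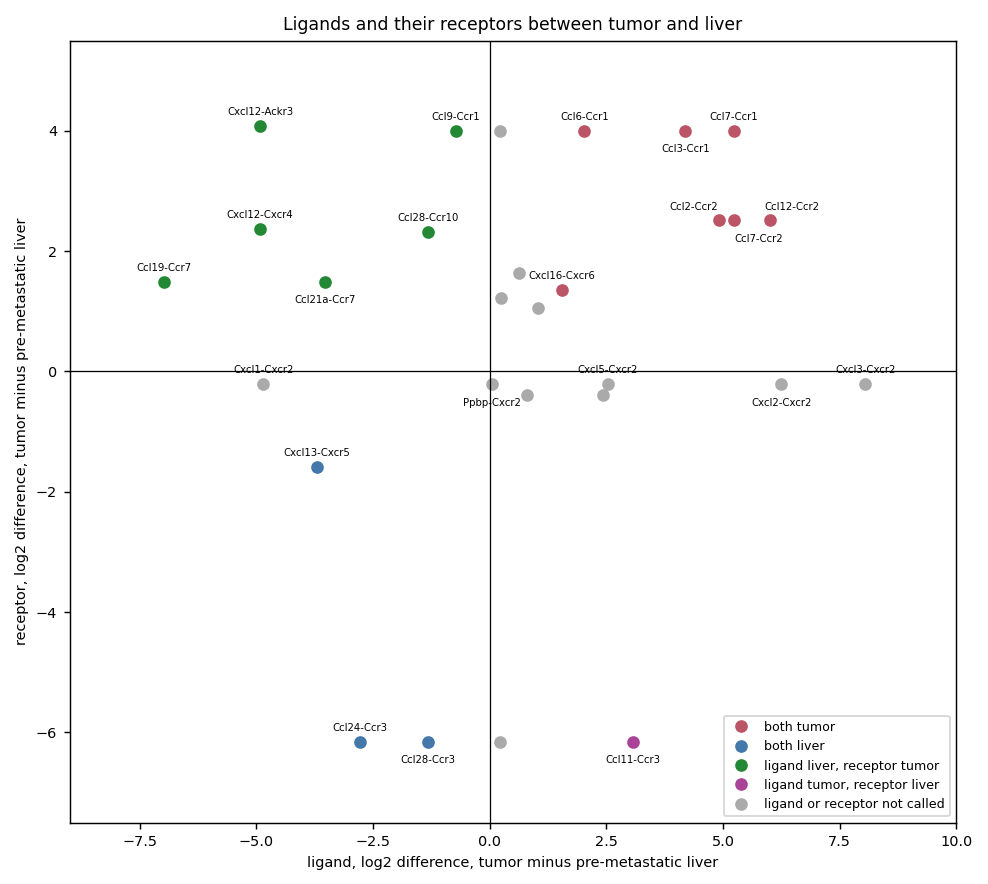
Log2 difference between tumor and pre-metastatic liver of the ligand (x axis) and of the receptor (y axis) for 29 pairs tested, after TMM scaling. Colors give the placement of each pair, gray points have a partner that was not called, and of these only the pairs of Cxcr2 are named. Pairs of Ccr1 and Ccr2 fill the upper right, Cxcl12, Ccl19 and Ccl21a the upper left, and Ccl11 with Ccr3 stands alone at the lower right. Pairs that share a receptor lie at one height.

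Several of these placements rest on large differences in both partners. *Cxcl12* fell from a median of 39.0 RPKM in pre-metastatic liver to 2.44 RPKM in tumor, while *Cxcr4* went from 0.579 to 5.67 RPKM and *Ackr3* from 0.474 to 14.2 RPKM. For *Ccr7*, the receptor median was 1.20 RPKM in tumor, where *Ccl19* was at 0 in all libraries and *Ccl21a* at a median of 0.176 RPKM. *Ccl11* had a median of 1.54 RPKM in tumor and 0.0331 RPKM in pre-metastatic liver, and *Ccr3* medians of 0.0427 and 2.07 RPKM. The 5 pairs of *Cxcr2* had ligands from -4.85 (*Cxcl1*) to 8.05 (*Cxcl3*) around a receptor that was not called after TMM.

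It was also asked whether mice with more of a ligand in one tissue had more of its receptor in the other. Across the 9 tumor-bearing mice, 28 pairs could be tested for ligand in tumor and receptor in liver, and 0 were called by Spearman correlation with an exact permutation test after Benjamini-Hochberg adjustment over the pairs. At an unadjusted p under 0.05 there were 3, and Pearson's r on log2(RPKM + 1) also gave 0 called and 2 at an unadjusted p under 0.05. Tumor *Cxcl13* and liver *Cxcr5* had the lowest p, with rho = -0.80 (exact permutation p = 0.0138, adjusted p = 0.387) and Pearson's r = -0.79 (exact permutation p = 0.0106), and r was -0.86 without mice M6 and M10. Tumor *Cxcl12* and liver *Ackr3* had rho = 0.70 (exact permutation p = 0.0433, adjusted p = 0.404) and r = 0.85 (exact permutation p = 0.0112), and r was 0.38 without mice M5 and M12, so that it rests on those mice. Tumor *Cxcl10* and liver *Cxcr3* had rho = 0.70 (exact permutation p = 0.0433, adjusted p = 0.404) and r = 0.61 (exact permutation p = 0.0829), which was 0.50 without mice M5 and M6. For ligand in liver and receptor in tumor, 22 pairs were tested, with 0 called and 0 at an unadjusted p under 0.05, and Pearson's r gave 0 and 0. The lowest p was that of liver *Ccl25* and tumor *Ccr9*, with rho = 0.68 (exact permutation p = 0.0503, adjusted p = 0.732) and r = 0.63 (exact permutation p = 0.0689), which was 0.51 without mice M2 and M6.

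Members that lie next to each other moved in the same direction in some clusters and not in others. Of all genes, 43.8% were higher in tumor than in pre-metastatic liver, 52.9% were higher without overlap and 39.5% were lower. In pre-metastatic over control liver, 17.7% of all genes rose. Whether neighbors moved together more than other genes was not tested. In the cluster of monocyte-attracting ligands on chromosome 11 (chr11:82035577-82179812, mm10), all 5 tested of 6 members were higher in tumor than in pre-metastatic liver without overlap, and all 4 tested rose in pre-metastatic over control liver. *Ccl1*, the sixth, had no count in control liver, at most 1 count in a pre-metastatic liver and 1 to 16 counts in tumor. In the second cluster on that chromosome (chr11:83525778-83664683), which holds *Ccl5*, *Ccl9*, *Ccl6*, *Ccl3* and *Ccl4*, 3 of 5 were higher in tumor and 1 was lower. In the chromosome 5 cluster that includes the *Cxcr2* ligands, 6 of 7 members were tested and 4 were higher in tumor, with *Cxcl1* lower and *Ppbp* not called. The 4 were *Cxcl2*, *Cxcl3*, *Cxcl5* and *Pf4*, and *Pf4* was not counted as a ligand of *Cxcr2*. The chromosome 4 cluster (chr4:41769467-42773991) of *Ccl27a*, *Ccl21b*, *Ccl27b*, *Ccl19* and *Ccl21a* gave 2 tested members, both lower in tumor. *Ccl21b*, *Ccl27b*, *Ccl26* and *Cxcl15* had 4 counts or fewer in every library, and copies of Ccl21 and Ccl27 that differ little in sequence may share reads. *Ccl20*, *Ccl27a*, *Cxcl17*, *Cxcr1*, *Ccr4*, *Ccr6* and *Ccr8* were also too low to be tested in any of the comparisons.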

How the data were processed

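Poly(A) RNA of 5 control livers, 9 pre-metastatic livers and 9 primary tumors was sequenced. Per the labels, the authors aligned reads to mm10 with HISAT or HISAT2 and counted them per gene with HTSeq 0.6.0; the strand setting is not given in the sources used here. The authors deposited whole-number counts and RPKM in one table, and RPKM recomputed from the counts differed by at most 1.75e-06 in relative terms. Total counts were 51064615 to 60393702 in control liver, 44587556 to 79773163 in pre-metastatic liver and 47005276 to 70884436 in tumor, and intervals and floors cover counting error only.

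The test took the genes that reached 10 counts in 5 or more libraries of a comparison, and was run with edgeR 4.0.16 (R 4.3.3), with TMM and the quasi-likelihood F test, Benjamini-Hochberg adjusted over all genes tested. The fits were tested on simulated data: for pre-metastatic against control liver, 88 of 100 genes changed 4-fold and 55 of 100 changed 2-fold were recovered among 16987. Correlations across mice used exact two-sided permutation tests (scipy 1.17.1) on RPKM. Values by sample are given for the 14 called members with the largest difference in each of the first 2 comparisons, for pairs called in opposite tissues at 2-fold or more, and for *Ccl28*, *Ccr10*, *Cxcr2* and *Ccr2*; *Ccl9* and others are named beside them with their values. The members, pairs and marker lists, and the marker genes left out of sums, were chosen with earlier results of these data known. The counts cover all members, of which 1 is not reported here by name or drawn.

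Liver and tumor of a mouse come from the same animal, which pairs them. Within a mouse, deviations of its 2 samples from their groups had a mean correlation of 0.0810 (-0.0427 to 0.241), against -0.0103 between mice. Alternatives were DESeq2 1.42.0, upper-quartile scaling, no filter, an exact rank-sum test of RPKM, each library left out, the phases of circadian genes, the mouse as a block and total-count scaling, the last chosen after seeing the data. No 2 libraries were alike within sampling noise. No source states that mice of a group were handled as separate batches, and p values measure the spread between these mice.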

Additional observations from a re-analysis of the deposited data

Results flagged for a closer look

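Among 85 groups of values checked for a single library far from the rest, 11 stood out, and chance alone gives about 1 in 20. In control liver, mouse C5 had the highest values of *Ccl19* (0.185 RPKM, next 0.0272) and *Ccl22* (0.0460 RPKM, next 0.0108), mouse C7 the highest of *Ccr1* (0.135 RPKM, next 0.0692), and mouse C4 the only count of *Cxcl5* (0.0106 RPKM). Mouse C1 had the lowest control value of *Ccl4* (0.0375 RPKM, next 0.283). In pre-metastatic liver, mouse M5 had the highest values of *Ackr3* (1.20 RPKM, next 0.512) and *Ccl4* (0.714 RPKM, next 0.246), mouse M12 the highest of *Ccl28* (0.168 RPKM, next 0.0852) and mouse M1 the highest of *Ccr7* (0.455 RPKM, next 0.220). In tumor, mouse M2 had the highest value of *Ccl21a* (3.97 RPKM, next 1.04) and mouse M10 the highest of *Ccr3* (0.198 RPKM, next 0.0966). The tumor of M10 also had the second highest sum of hepatocyte genes, after M12, and the part of liver tissue in its *Ccr3* value was not tested.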

How the results depend on the processing

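Counts of members called stayed within 1.5 times under DESeq2, upper-quartile scaling and no filter. In pre-metastatic against control liver, 17 members were higher within the early phase of circadian genes, where 26 were higher over all livers. In tumor against control liver, 5 members were lower with total-count scaling and 7 by the exact rank-sum test, where 11 were lower with TMM. Leaving out each library in turn gave 21 to 29 members called (19 to 27 higher, 2 lower) in pre-metastatic against control liver, 37 to 41 (24 to 28 higher, 12 to 13 lower) in tumor against pre-metastatic liver and 41 to 44 (30 to 33 higher, 10 to 11 lower) in tumor against control liver, and 0 pairs across mice in both directions. With the mouse as a block for the paired samples, 37 members were called in tumor against pre-metastatic liver (25 higher, 12 lower) in place of 40. *Cxcr5*, *Ccr9* and *Xcr1* lost their calls there (edgeR adjusted p = 0.0846, 0.0970 and 0.160).

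Among the members given by sample, differences changed sign only where the member was not called with TMM, and the cause was not tested; *Ccl9* and *Ccl25*, called with TMM, changed sign with total-count scaling between tumor and liver. For pre-metastatic against control liver, *Ackr3* was -0.0357 with total-count scaling, -0.0168 in the exact rank-sum test, and -0.0843, -0.134 and -0.169 without C1, C5 and M5 (-0.169 to 0.213 over libraries left out). *Cxcl12* was -0.0079 in the exact rank-sum test, *Ccl28* 0.0151 without C5 (-0.577 to 0.0151), and *Ccr10* -0.0732 and -0.0785 without C1 and C4 (-0.0785 to 0.342). For tumor against pre-metastatic liver, *Cxcr2* was 1.01 with total-count scaling, 0.41 within the late phase, 0.31 in the exact rank-sum test and 0.111 without the liver of M6 (-0.461 to 0.111), and *Cxcl14* was -0.33 without the tumor of M4 (-0.33 to 0.633). Low counts limit *Ccl7*, *Ccl12*, *Ccl19*, *Ccl22*, *Ccr7*, *Ccr10*, *Cxcl5*, *Cxcr5* and *Xcr1* in control liver, where no library had more than 12 counts.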
